A study of Mus musculus with 10 samples.

Results

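The comparison described here sets bacterial lipopolysaccharide (LPS) against the neuropeptide substance P (SP) in the mouse urinary bladder. It uses 8 of the 10 arrays of the series, taken as 4 pairs matched on genotype and time, and leaves the 2 saline arrays out of the test. The pairs were chosen by their labels, not by any measured value. They are PAR1-/- at 4 h, PAR1-/- at 24 h, WT at 4 h and WT at 24 h, and each pair holds 1 LPS array and 1 SP array. All 5030 probes of the array belong to the comparison, and 4959 of them could be returned to intensities.

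Each array was hybridised with radioactively labelled cDNA from 1 pool of 8 bladders. PAR1-/- mice lack proteinase-activated receptor 1, on a background enriched for C57BL/6J, and WT mice were C57BL/6J. All mice were female. LPS of Escherichia coli was instilled into the bladder at 100 µg/ml. SP was instilled at 20 µM in PAR1-/- mice and at 10 µM in WT mice by the sample labels, whereas the methods give 1 concentration for all mice. Genotype and SP dose therefore cannot be told apart in any value below that sets PAR1-/- pairs against WT pairs. No group was hybridised more than once, so the 4 pairs serve as the replicates of the difference between the stimuli. They differ in genotype, time and SP dose, and their spread contains those differences.

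LPS is an outer membrane component of gram-negative bacteria. It is handed by CD14 to TLR4 and its partner MD-2 (Ly96), and the adaptor MyD88 then leads to NF-kappaB and to cytokine genes. SP is a tachykinin encoded by Tac1 and released by sensory nerves. It acts on the NK1 receptor (Tacr1), which couples to Gq, phospholipase C and calcium, and it is known for neurogenic inflammation with mast cells and oedema. PAR1, encoded by F2r, is cleaved by thrombin and carries its own tethered ligand. The bladder wall that was pooled holds urothelium, smooth muscle, fibroblasts, vessels, nerves and immune cells. In such bulk samples fewer cells of a type and less RNA per cell cannot be told apart.

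Between 37.3% and 48.4% of the probes of the 4 h pairs lay above the background threshold of their array. At 24 h the share was 36.0% to 39.8% on 3 arrays and 11.2% on the WT LPS array, where 4301 probes (86.7%) stand at 15 and nothing lies between that and 29. The WT 24 h pair is therefore the thinnest, with 882 probes that gave a difference, beside 1964 in PAR1-/- at 4 h, 1982 in PAR1-/- at 24 h and 2080 in WT at 4 h. The threshold of its LPS array, 33.7, takes its spread from 12 probes at 9, the only ones under the background mode. The share above background and the bounds of that pair rest on this threshold. A second feature touches all 24 h arrays of the series. Their lowest value (6, 7 or 9) is held by 9 to 23 probes each, and these probes had a median of 34.0 to 74.5 on the other arrays, whereas probes at the next value had a median of 11.0 to 14.0. On the 4 h arrays the probes at the lowest value had a median of 10.0 to 12.0 elsewhere. In all, 32 of the tested probes held such a lowest value in a pair. F2r, the deleted gene, had intensities of 17 and 18 on the PAR1-/- LPS arrays and of 51 and 21 on the PAR1-/- SP arrays, at 4 and 24 h. It had 195 and 15 on the WT LPS arrays and 22 and 11 on the WT SP arrays at the same times. The 2 PAR1-/- SP arrays were thus above their thresholds, and neither WT array at 24 h was. The sources used here do not say where the probe lies relative to the deletion.

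Promoter sequences follow for the gene that passed the test and for a pair of smooth muscle genes with differences of opposite sign. Each is the 250 bases before an annotated start of the gene in RefSeq (GRCm38.p6), 5′ to 3′ on the strand of the gene. The windows were searched on both strands for AP-1 (TGANTCA), CRE (TGACGTCA), the CArG box and the NF-kappaB site, with matches in capitals. AP-1 and the cAMP response element are bound by Fos-Jun and CREB proteins, and the CArG box by serum response factor. Dclk1 encodes doublecortin-like kinase 1, a microtubule-associated kinase, and the window of its downstream start lies at chr3:55461478-55461727 on the plus strand. Acta2 encodes smooth muscle alpha-actin, with its window at chr19:34255374-34255623 on the minus strand. Vcl encodes vinculin, which ties actin to adhesion sites, with its window at chr14:20929148-20929397 on the plus strand.
Dclk1: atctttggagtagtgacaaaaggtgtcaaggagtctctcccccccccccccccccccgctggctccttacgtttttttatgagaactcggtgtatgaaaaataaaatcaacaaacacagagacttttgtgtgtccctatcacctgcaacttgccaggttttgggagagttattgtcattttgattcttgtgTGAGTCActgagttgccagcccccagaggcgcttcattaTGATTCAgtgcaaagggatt
Acta2: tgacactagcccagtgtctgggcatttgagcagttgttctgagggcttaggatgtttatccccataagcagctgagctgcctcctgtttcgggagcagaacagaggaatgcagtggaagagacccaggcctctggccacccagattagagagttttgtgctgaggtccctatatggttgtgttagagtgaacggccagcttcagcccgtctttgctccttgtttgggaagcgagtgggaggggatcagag
Vcl: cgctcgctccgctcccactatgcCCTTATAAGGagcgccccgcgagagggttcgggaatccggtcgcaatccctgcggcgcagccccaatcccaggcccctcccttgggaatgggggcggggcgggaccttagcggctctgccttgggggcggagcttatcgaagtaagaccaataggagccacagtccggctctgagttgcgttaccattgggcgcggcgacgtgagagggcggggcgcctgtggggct
The Dclk1 window holds 2 AP-1 matches, 59 and 20 bases before the start, and AP-1 letters occur in 6.75% of all 32851 promoter windows of this length. The upstream start of Dclk1 has none of the motifs. The Vcl window holds 1 CArG box 227 bases before the start, a motif found in 1.47% of all windows. The Acta2 window holds no exact match to any of these motifs, which says nothing about the factors. With 1 letter allowed to differ from the CArG box it holds 2 matches, 84 and 34 bases before the start, and 18.6% of all windows hold such a match. NF-kappaB letters were in none of the 3 windows and in 7.91% of all windows.

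The question put to the pairs was which genes respond differently to LPS and to SP whatever the genotype and the time. Values below are intensities scaled to the mean of the arrays, and differences are LPS minus SP on the log2 scale, so that a positive one means higher after LPS. Where 1 array of a pair was at background its threshold stood in for it, and the difference is then a bound. A probe was tested where at least 3 of the 4 pairs gave a difference, which held for 1521 probes. With limma and Benjamini-Hochberg adjustment over all of them, 1 probe was higher after LPS (0.0657%) and 0 were lower. At an unadjusted p under 0.05 there were 89 probes (5.85%), of which 66 were higher after LPS and 23 lower. The median standard error was 0.27.

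Dclk1 was the probe called. It had a scaled intensity of 109 after LPS and 17.6 after SP in PAR1-/- bladders at 4 h, and of 120 after LPS and 7.2 after SP in PAR1-/- bladders at 24 h. In WT bladders at 4 h it had 58.8 after LPS and 23.1 after SP. In WT bladders at 24 h both arrays were at background, with 6.52 after LPS and 8.62 after SP, and gave no difference. All 3 LPS values above background lay above all SP values. The differences were 2.63 in PAR1-/- and 1.35 in WT at 4 h and, as a bound, 2.73 in PAR1-/- at 24 h. Their mean, with that bound taken at its value, was 2.24 ± 0.31 (SE, 3 pairs), a fold of 4.71 with a 95% interval of 2.95 to 7.52 (adjusted p = 0.00969, limma). The call was lost under quantile normalization (mean 2.27, adjusted p = 0.719, limma), without normalization between arrays (1.87, 0.655), with a threshold of 2 SD (2.28, 0.0788), on the deposited scores (adjusted p = 0.999) and in the unpaired model (1.86, 0.319). It was kept with regression on the 8 arrays (mean 2.32, adjusted p = 0.00903, limma), a shift to equal medians (2.57, 0.00011) and no floor (1.91, 6.43e-06). A filter of at least 2 pairs (2.24, 0.000972), a trended robust prior (2.24, 0.000443) and a threshold under the next value on the WT LPS 24 h array (2.24, 0.0226) kept it too. All of these settings used the lowest values described next. Dclk1 is one of the probes with lowest values: its SP value in PAR1-/- at 24 h and both its WT values at 24 h are the lowest of their arrays. With such values set to missing Dclk1 keeps 2 pairs, is no longer tested, and 0 probes pass (smallest adjusted p 0.541). Without the PAR1-/- 4 h pair or without the PAR1-/- 24 h pair 0 probes pass as well, with adjusted p for Dclk1 of 0.324 and 0.363 (limma) and means of 2.04 and 1.99. With any 1 pair left out its mean lay between 1.99 and 2.68. Without the WT 4 h pair 5 probes pass, Dclk1 with Cdkn2c, Lif, Naglu and Plxna1.

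**Figure D1:**
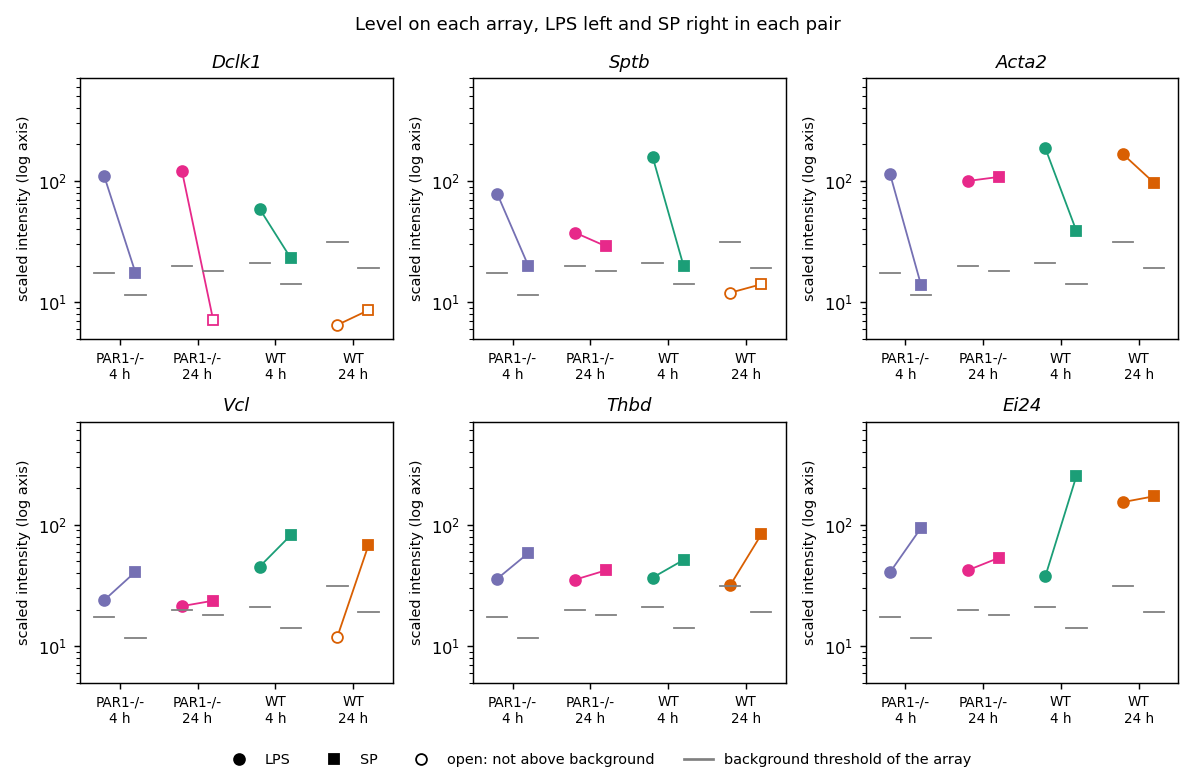
Scaled intensity (log axis) of 6 genes on each of the 8 arrays, LPS as circles on the left and SP as squares on the right of each matched pair. Open symbols are not above the background threshold of their array, drawn as a grey line. Dclk1, Sptb and Acta2 lie higher after LPS in both 4 h pairs, and Vcl, Thbd and Ei24 lie lower after LPS in all 4 pairs.

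Direction was counted over the pairs that gave a difference, and a missing pair did not count against it. Among the 1521 probes tested, 9 (0.592%) had 1 direction in those pairs and a mean of 1 or more in favour of LPS. In favour of SP 1 (0.0657%) had the same. This split depended on the scaling, with 5 in favour of LPS and 4 of SP under quantile normalization, and 2 of LPS and 37 of SP without normalization between arrays. The 9 were Dclk1, Sptb, Plxna1, Naglu, Elk4, Tiam1, Lefty1, Tcirg1 and a probe with no gene name. The WT 24 h pair gave no difference for Dclk1, Sptb, Plxna1, Elk4, Tiam1 and Tcirg1. Naglu and Lefty1 lie outside the rule for named genes and were named after their values were seen. With no minimum on size, 195 probes (12.8%) had 1 direction higher after LPS and 77 (5.06%) had 1 direction lower. Dclk1 alone passed the adjusted test. The adjusted p was 0.406 for Sptb and 0.824 for the other named genes chosen for 1 direction in every measured pair (limma), with the exception of Cacna2d1 at 0.987.

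Sptb, which encodes the erythroid spectrin beta chain under the cell membrane, followed Dclk1. It had a scaled intensity of 78.8 after LPS and 20.1 after SP in PAR1-/- at 4 h, of 37.6 after LPS and 29 after SP in PAR1-/- at 24 h, and of 159 after LPS and 19.9 after SP in WT at 4 h. Both WT arrays at 24 h were at background. Every LPS value above background lay above every SP value, and the mean difference was 1.78 ± 0.39 (SE, 3 pairs). In these pairs the SP values ran from 19.9 to 29 and the LPS values from 37.6 to 159.

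Acta2 was above background on all 8 arrays. At 4 h it had 115 after LPS and 13.9 after SP in PAR1-/-, and 186 after LPS and 38.7 after SP in WT. At 24 h it had 100 after LPS and 108 after SP in PAR1-/-, and 166 after LPS and 96.5 after SP in WT. LPS was above SP in 3 of 4 pairs, the PAR1-/- pair at 24 h being the exception. The mean difference was 1.5 ± 0.39 (SE, 4 pairs), 2.83-fold, with an unadjusted p of 0.00179 and an adjusted p of 0.824 (limma).

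Plxna1, a semaphorin receptor of the plexin family, had a mean of 1.41 ± 0.41 (SE, 3 pairs) with 1 pair far above the others. It had 171 after LPS and 21.3 after SP in PAR1-/- at 24 h, whereas the other pairs gave 27.2 after LPS and 20.5 after SP (PAR1-/-, 4 h) and 31.9 after LPS and 18.3 after SP (WT, 4 h). In Elk4, Tiam1 and Tcirg1 the WT 4 h pair had the highest difference. Elk4, a ternary complex factor that works with serum response factor, had 560 after LPS and 117 after SP in that pair, and differences of 0.65 and 0.60 in the PAR1-/- pairs (mean 1.17 ± 0.34). Tiam1, an exchange factor for the GTPase Rac, had 108 after LPS and 19.4 after SP in WT at 4 h and differences of 0.64 and 0.28 in PAR1-/- (mean 1.13 ± 0.37). Tcirg1, a subunit of the vacuolar proton pump, had 71.3 after LPS and 15.0 after SP in WT at 4 h and a mean of 1.06 ± 0.36. In PAR1-/- its difference was 0.93 at 4 h. At 24 h in PAR1-/- it had 21.4 after LPS and 21.3 after SP, a difference that rounds to 0.

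The same order, with WT at 4 h highest and PAR1-/- at 24 h lowest, held for Hbb-bh1, Tgfbr1 and Htr3b. Hbb-bh1, an embryonic beta-like globin, had differences of 0.89 and 0.19 in PAR1-/- at 4 and 24 h and of 1.78 in WT at 4 h. Tgfbr1, the type I receptor of TGF-beta, had 0.75 and 0.29 in PAR1-/- and 1.48 in WT. Htr3b, a subunit of a serotonin-gated channel, had 1.18 and 0.41 in PAR1-/- and 1.27 in WT. Stap1, an adaptor protein of haematopoietic cells, had differences of 0.96 and 0.08 in PAR1-/-, of 1.53 in WT at 4 h and a bound of 0.73 in WT at 24 h (mean 0.83 ± 0.26, 4 pairs). Syngr3, a synaptic vesicle protein, averaged 0.62 ± 0.29 over 4 pairs, with a bound of -0.15 in WT at 24 h. For Lefty1, an inhibitor of Nodal signalling, the mean of 1.08 came from 0.55 and 0.15 in PAR1-/- and a bound of 2.54 in WT at 4 h. Naglu, a lysosomal enzyme of heparan sulphate breakdown, averaged 1.22 ± 0.36 through bounds of 2.53 in PAR1-/- and 2.02 in WT at 24 h, where its SP values were the lowest of their arrays.

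Ei24, an endoplasmic reticulum protein that p53 can induce, had the lowest mean among the genes with 1 direction. It had 40.6 after LPS and 94.4 after SP in PAR1-/- at 4 h and 37.7 after LPS and 253 after SP in WT at 4 h. At 24 h it had 42.2 after LPS and 53.4 after SP in PAR1-/-, and 154 after LPS and 172 after SP in WT. It was lower after LPS in 4 of 4 pairs, with a mean of -1.12 ± 0.35 (SE, 4 pairs), and the pairs at 4 h held most of that. Vcl went the other way from its fellow smooth muscle gene Acta2. It had 24.0 after LPS and 41.0 after SP in PAR1-/- at 4 h, 21.4 after LPS and 23.7 after SP in PAR1-/- at 24 h, and 45.3 after LPS and 82.2 after SP in WT at 4 h. In WT at 24 h it was at background after LPS and at 68.1 after SP. Its mean was -0.72 ± 0.24 (SE, 4 pairs; unadjusted p = 0.00853, adjusted p = 0.824, limma).

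Thbd encodes thrombomodulin, which turns thrombin from a clotting enzyme into an activator of protein C and so belongs to the setting of PAR1. It had 35.9 after LPS and 58.4 after SP in PAR1-/- at 4 h and 36.7 after LPS and 51.4 after SP in WT at 4 h. At 24 h it had 35.3 after LPS and 42.2 after SP in PAR1-/-, and 31.8 after LPS and 83.4 after SP in WT. All 4 LPS values lay below all 4 SP values, and the mean was -0.71 ± 0.25 (SE, 4 pairs). Ccl9, a chemokine of myeloid cells, averaged -0.68 ± 0.27, Dmrt1, a transcription factor of the gonad, -0.69 ± 0.28, and Myadm, a membrane protein of myeloid differentiation, -0.67 ± 0.29. For Thbd, Ccl9, Dmrt1 and Myadm the WT 24 h pair had the largest difference, between -1.39 and -1.86. The unscaled LPS values of these 4 genes on that array were 34 to 36, just over its threshold of 33.7. Crabp1, a binding protein of retinoic acid, had 28.0 after LPS and 138 after SP in PAR1-/- at 4 h and differences of -0.01 to -0.08 in the other pairs. Epc1, a chromatin protein of the NuA4 complex, averaged -0.59 ± 0.29 over 3 pairs, and Selenop, the selenium carrier of plasma, -0.43 ± 0.23 over 4 pairs. Cacna2d1, a calcium channel subunit, was lower after LPS in the 3 pairs measured on both arrays, but a bound of 1.82 in WT at 4 h brought its mean to 0.04 ± 0.36.

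**Figure D2:**
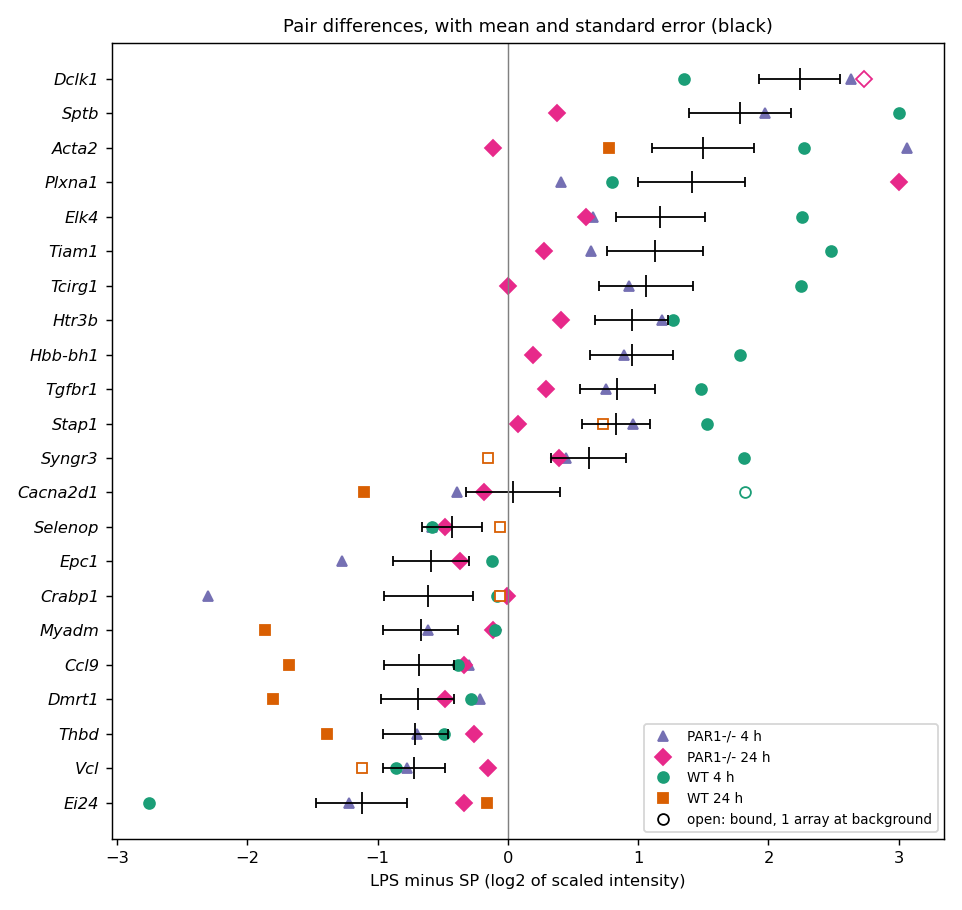
LPS minus SP difference (log2) of 22 genes in each matched pair, with the mean and its standard error in black. Open symbols are bounds where 1 array was at background. Dclk1 is the one gene past the adjusted threshold, and for Crabp1, Ccl9 and Dmrt1 1 pair lies far from the other 3.

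The 4 pairs share no array, and their differences were only loosely related. Over the probes measured on both arrays of both pairs, Pearson's r across probes was 0.18 between the 4 h pairs of the genotypes (1367 probes) and -0.18 between their 24 h pairs (511 probes). It was -0.20 between 4 and 24 h in PAR1-/- (1408 probes) and 0.14 in WT (529 probes). Probes are not independent replicates, all arrays were scaled to 1 common mean, and these values are a description. The SD of the difference over probes measured on both arrays was 0.47 in PAR1-/- at 4 h, 0.41 in PAR1-/- at 24 h, 0.61 in WT at 4 h and 0.79 in WT at 24 h. The median difference over all probes with one was 0.17, 0.09, 0.26 and -0.18 in the same order, and under quantile normalization it lay between -0.02 and 0.02.

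**Figure D3:**
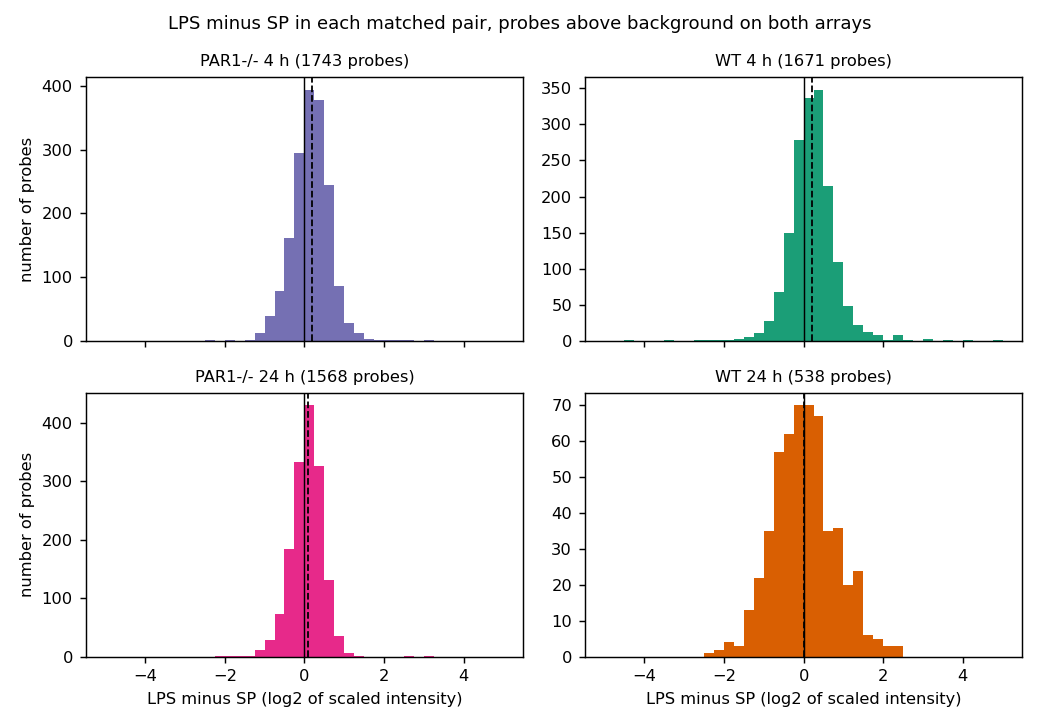
Number of probes by their LPS minus SP difference (log2) in each matched pair, for probes above background on both arrays, with the median dashed and 0 as a solid line. The PAR1-/- 24 h pair is the narrowest of the 4 with an SD of 0.41, and the WT 24 h pair, with 538 probes, is the widest with 0.79.

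At more than 3-fold in a single pair, LPS was higher for 11 probes (0.560%) and SP for 4 (0.204%) in PAR1-/- at 4 h. In PAR1-/- at 24 h LPS was higher for 10 (0.505%) and SP for 14 (0.706%). In WT the counts were 74 (3.56%) for LPS and 17 (0.817%) for SP at 4 h, and 22 (2.49%) for LPS and 20 (2.27%) for SP at 24 h. All of these counts include bounds. Probes measured on both arrays made up 7 for LPS and 2 for SP in PAR1-/- at 4 h, and 2 and 5 at 24 h. In WT they made up 34 for LPS and 10 for SP at 4 h, and 14 and 10 at 24 h. A single pair has no replicate, so these counts carry no test. The genotypes shared Acta2 and Sptb among probes more than 3-fold higher after LPS at 4 h, which is 18.2% of the PAR1-/- list and 2.7% of the WT list. At 24 h they shared Cdkn2c, Naglu, Shoc2 and Snap23, 40.0% of the PAR1-/- list and 18.2% of the WT list. All 4 of these held the lowest value of the array on both SP arrays at 24 h.

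Among probes above background on both arrays of a pair, the largest single differences belonged to WT at 4 h. Tnfsf4, the OX40 ligand that costimulates T cells, had 623 after LPS and 19.9 after SP, and Hoxd11, a homeobox gene, had 299 after LPS and 17.7 after SP. F2r itself had 187 after LPS and 14.4 after SP in that pair. In the other pairs of these 3 genes no LPS value was above background, and they gave no difference or bounds of -0.11 to -0.47. In the opposite direction Lif, leukaemia inhibitory factor, had 26.1 after LPS and 552 after SP in WT at 4 h. At 24 h in WT Lif had 154 after LPS and 14.1, at background, after SP, so that its differences of -4.40 and 3.01 had opposite signs. Zfp97, a zinc finger gene, did the same with 21.3 after LPS and 219 after SP at 4 h, and 81.5 after LPS and 32.7 after SP at 24 h.

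Whether the difference between the stimuli depended on genotype was tested on the 799 probes with a difference in all 4 pairs. The interaction, PAR1-/- minus WT, gave 0 calls (0.00%; smallest adjusted p 0.382), with 34 probes at an unadjusted p under 0.05 (limma). Ctsk, the collagen-degrading cathepsin K, was among the lowest of the genes measured on all 8 arrays. Its differences were -0.11 and -0.25 in PAR1-/- at 4 and 24 h, from 134 after LPS and 145 after SP, and from 110 after LPS and 130 after SP. In WT they were 2.28 and 1.45, from 229 after LPS and 47.2 after SP, and from 214 after LPS and 78.2 after SP. The interaction was -2.04 ± 0.54 (SE; adjusted p = 0.456, limma). Arnt, the partner of the hypoxia and dioxin receptors, had an interaction of -1.98 ± 0.55 (adjusted p = 0.465), with differences of 0.19 and -0.65 in PAR1-/- and of 2.07 and 1.43 in WT. Ppp1r17, a phosphatase inhibitor, had -2.55 ± 0.61 (adjusted p = 0.382). Snap91, a clathrin assembly protein chosen after its values were seen, had differences of -0.11 and 0.32 in PAR1-/- and of 1.91 and 1.97 in WT. Genes at the other end were Ehd1, an endocytic recycling protein, Ube3a, a ubiquitin ligase, and Sypl, a vesicle protein. Ehd1 had differences of 0.01 and 0.20 in PAR1-/- and of -0.43 and -2.25 in WT.

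Whether it depended on time was tested in the same probes. The interaction, 24 h minus 4 h, gave 0 calls (0.00%; smallest adjusted p 0.0843), with 40 probes at an unadjusted p under 0.05. Cdkn2c, an inhibitor of the cyclin D kinases, had that smallest p. Its differences were 0.01 in PAR1-/- and -0.61 in WT at 4 h, and at 24 h bounds of 2.88 in PAR1-/- and 2.18 in WT, where its SP values were the lowest of their arrays. With lowest values set to missing the smallest adjusted p of this interaction was 0.438. Among genes above background on all 8 arrays Eif3a, a translation initiation factor subunit, had -2.57 ± 0.62 (adjusted p = 0.174) and Acta2 -2.32 ± 0.55 (adjusted p = 0.174). At 4 h Eif3a had 136 after LPS and 58.1 after SP in PAR1-/- and 583 after LPS and 67.3 after SP in WT. At 24 h it had 108 after LPS and 124 after SP in PAR1-/- and 34.0 after LPS and 51.0 after SP in WT. Tpsg1, a transmembrane tryptase of mast cells, was at the other end with 1.96 ± 0.60 (adjusted p = 0.574). It had 68.8 after LPS and 246 after SP in PAR1-/- at 4 h, and 154 after LPS and 87.5 after SP in PAR1-/- at 24 h. In WT it had 351 after LPS and 384 after SP at 4 h, and 171 after LPS and 78.2 after SP at 24 h. Scaling by a shift to equal medians gave 8 time calls. With a pair left out, 1 side of each interaction is a single pair. The number of calls then varied with the pair left out, and it is not given here.

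Gene lists were read against all 1521 probes, whose median mean difference was 0.07, with 60.0% above 0. That share was 48.4% under quantile normalization and 8.52% without scaling between arrays, where the median was -0.39, and without scaling the means of Mx2, Atf3, Itgb1, Cpa3, Krt19, Gzmb and Mmp12 lay below 0. No list held a called probe, since Dclk1 is in none of them. On the receiving side of LPS, Cd14 was at background on all 8 arrays, and Tlr4 has no value here. Of the list for LPS sensing and TLR signalling, 12 genes had intensities and 6 were tested, with a median of -0.04, 3 higher and 3 lower. Ly96, the co-receptor MD-2, had 46.7 after LPS and 57.4 after SP in PAR1-/- at 4 h, and 46.3 after LPS and 71.7 after SP in WT at 4 h. At 24 h it was at 51.1 after LPS and 32.0 after SP in PAR1-/-, and at background after LPS and at 102 after SP in WT. In 3 of 4 pairs it was lower after LPS and the mean was -0.49 ± 0.31 (adjusted p = 0.86, limma). Myd88 had differences of -0.17 and -0.35 in PAR1-/- and of -0.37 and 1.5 in WT, at 4 and 24 h.

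Of the cytokine genes well known as targets of LPS, Il1a, Il1b and Cxcl2 were above background on 0 of the 8 arrays and Il6 on 1. Nfkbia, the NF-kappaB inhibitor that LPS is known to induce, was above background on 1. Of the acute cytokines 4 were tested, with a median of -0.22. Il5, a cytokine of eosinophils, was lower after LPS in 4 of 4 pairs, with 226 after LPS and 230 after SP in PAR1-/- at 24 h and 231 after LPS and 504 after SP in WT at 4 h (mean -0.54 ± 0.25, adjusted p = 0.824). Tnf had differences of 0.43 and -0.53 in PAR1-/- and of -0.12 and 0.77 in WT, at 4 and 24 h. Among 9 chemokines tested the median was 0.07. Ccl7 averaged 0.45 ± 0.25 and Xcl1, which attracts dendritic cells, 0.78 ± 0.38 over 3 pairs, with 60.8 after LPS and 14.3 after SP in PAR1-/- at 4 h. Ccl2 and Ccl4 were above background on all 8 arrays and had means of 0 and 0.07. The interferon response had 8 probes tested and a median of 0.10, with Mx2, an antiviral GTPase, at 0.30 ± 0.24. Immediate early genes had 6 tested and a median of 0.03, with Atf3 at 0.36 ± 0.27 and Fos at 0.07 ± 0.24.

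On the side of SP, Tac1 and Tacr2 were at background on all 8 arrays. Tacr1 was above background on 1, the WT SP array at 4 h, with 39.2 there and a background value of 13.6 after LPS. Of the list for tachykinin signalling through Gq 15 genes had intensities and 4 were tested, with a median of 0.02. Tac2, which encodes neurokinin B, had 171 after LPS and 123 after SP in PAR1-/- at 24 h and 215 after LPS and 117 after SP in WT at 4 h, with differences of -0.05 and 0.04 in the other pairs (mean 0.34 ± 0.24). Prkcb, a calcium-dependent protein kinase C, averaged -0.34 ± 0.26. Proteinase-activated receptors and proteases had 5 probes tested, with a median of -0.16, of which Thbd was lowest. Among prostaglandin and arachidonate enzymes Ltc4s, the leukotriene C4 synthase of mast cells, was lower after LPS in 4 of 4 pairs (mean -0.72 ± 0.29, adjusted p = 0.824). Its bound of -1.91 in PAR1-/- at 24 h rests on a lowest value after LPS, and the other 3 differences were -0.15 to -0.54. Pla2g4a, the cytosolic phospholipase A2, had 30.5 after LPS and 54.1 after SP in PAR1-/- at 24 h and 112 after LPS and 22.0 after SP in WT at 24 h.

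Markers of the cell types of the bladder gave no call in either direction. For the urothelium 15 genes had intensities and 4 were tested, all with means above 0 and a median of 0.13, and Krt19 averaged 0.36 ± 0.28. Upk2, a uroplakin of the urothelial surface, was above background on 4 of the 8 arrays. Smooth muscle markers had 5 tested, 2 higher and 3 lower, with a median of -0.02. Beside Acta2, Myh11, the smooth muscle myosin heavy chain, had a mean of 0.15 and Smtn, smoothelin, of -0.02. The summed unscaled intensity of the smooth muscle list was taken as a share of the array total. At 4 h it was 0.251% after LPS and 0.197% after SP in PAR1-/-, and 0.266% after LPS and 0.206% after SP in WT. The higher share after LPS at 4 h came from Acta2. Its intensity was 152 of a sum of 390 after LPS and 29 of 562 after SP in PAR1-/-. In WT it was 194 of 437 after LPS and 69 of 517 after SP. At 24 h the share of the list was lower after LPS, with 0.234% against 0.254% after SP in PAR1-/- and 0.232% against 0.244% in WT. On the WT LPS array at 24 h Acta2 was the 1 probe of 10 above background, at 136 of a sum of 271. Fibroblast and matrix genes had 8 tested and a median of 0.13, with Mmp13, a collagenase, at 0.75 ± 0.30 over 3 pairs. Mast cell markers had 2 tested, and Cpa3, mast cell carboxypeptidase, had 312 after LPS and 300 after SP in PAR1-/- at 24 h and 339 after LPS and 276 after SP in WT at 4 h (mean 0.22 ± 0.22). Its differences were 0.06 to 0.33 in 4 of 4 pairs. Hdc, the other marker tested, had 0.46 and -0.21 in PAR1-/- at 4 and 24 h and -0.15 in WT at 4 h (mean 0.04 ± 0.27). At 4 h the summed share of the mast cell list was 0.354% of the array after LPS and 0.317% after SP in PAR1-/-. In WT at 4 h it was lower after LPS, with 0.310% against 0.337% after SP. At 24 h it was 0.413% after LPS and 0.373% after SP in PAR1-/-, and 0.356% after LPS and 0.280% after SP in WT. On the WT LPS array at 24 h Cpa3 was the 1 probe of 10 above background, at an intensity of 280 of a sum of 415. Neutrophil and macrophage markers had 7 tested, 5 with means above 0 and 2 below, and a median of 0.16, which was -0.06 under quantile normalization and -0.38 without normalization. Mmp12, macrophage elastase, had differences of 0.02 and -0.09 in PAR1-/- and of -0.07 and 1.19 in WT, at 4 and 24 h, and its mean of 0.26 ± 0.26 was -0.05 without the WT 24 h pair. Lymphocyte markers had 4 tested, 3 with means above 0 and 1 below, and a median of 0.22. Gzmb, granzyme B, was at 0.26 ± 0.23 and Ptprcap at -0.19 ± 0.27. Leukocyte adhesion genes had 3 tested, all above 0, with Itgb1, the beta 1 integrin, at 0.60 ± 0.28 over 3 pairs.

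Lists of housekeeping and growth genes had medians between 0.10 and 0.18. Ribosomal proteins and translation factors had 14 tested and a median of 0.10, cell cycle genes 11 and 0.11, and heat shock and proteasome genes 16 and 0.18. Ccne2, cyclin E2, averaged 0.78 ± 0.30 over 3 pairs. Cct5, a chaperonin subunit, averaged -0.89 ± 0.35, of which the PAR1-/- 24 h pair gave a bound of -2.58. Ppia, cyclophilin A, had 24.2 after LPS and 86.0 after SP in WT at 4 h and differences of -0.06 in the 2 other pairs with a value. Ftl1, the ferritin light chain, had 33.7 after LPS and 122 after SP in PAR1-/- at 24 h and differences of -0.42 to 0.29 in the others. C1qc, a subunit of complement C1q, averaged 0.61 ± 0.32. The 2 tested probes of Gapdh averaged 0.20 and -0.27, and those of Ywhaz -0.06 and -0.08. Over 34 pairs of probes for 1 gene the median correlation of unscaled log2 intensities across the 8 arrays was 0.46, against 0.53 over all pairs of probes. Over the 4 of them above background on at least 4 arrays it was 0.67, for which no value over all probes with that filter was made. Differences in brightness between arrays enter all of these values.

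**Figure D4:**
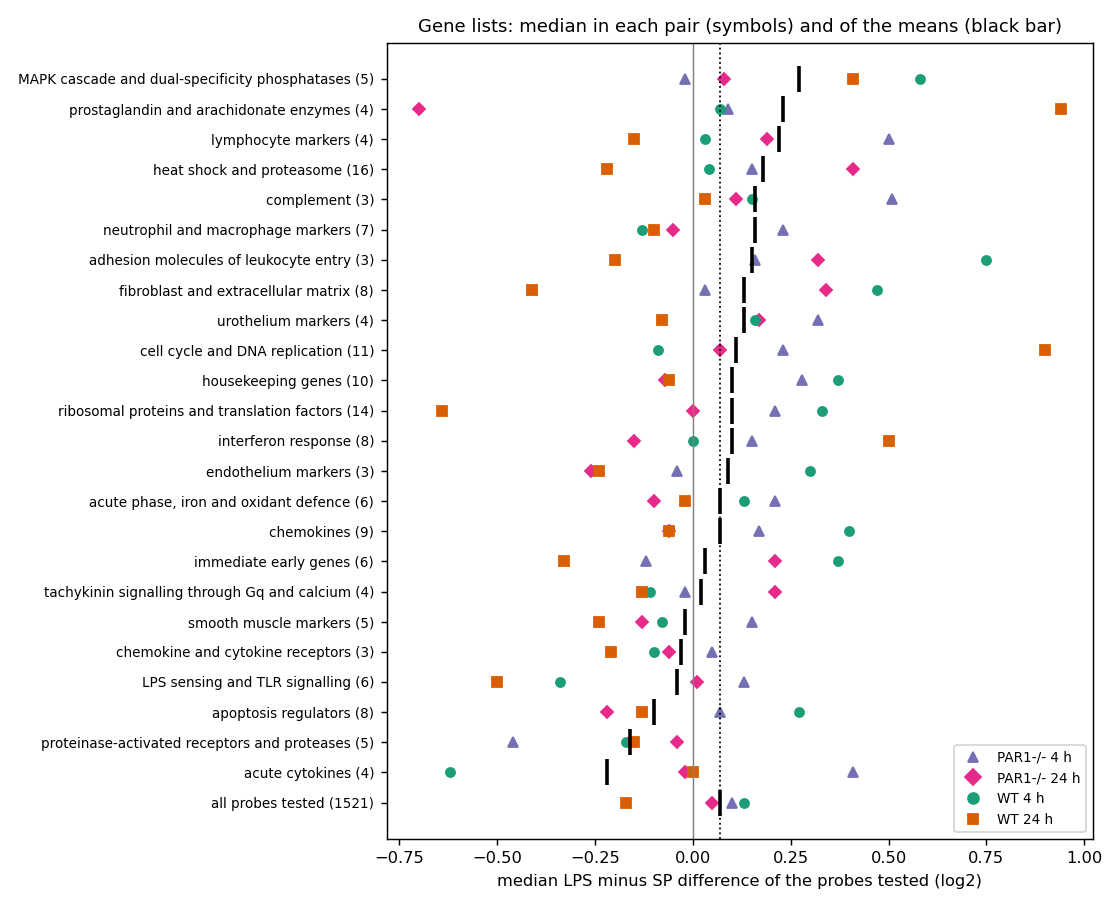
Median LPS minus SP difference (log2) of the tested probes of each gene list with at least 3, in each matched pair (symbols) and of the means over pairs (black bar), with the number of probes in brackets. The dotted line is the median of all 1521 probes at 0.07, and list medians lie between -0.22 and 0.27.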

How the data were processed

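The authors pooled 8 bladders for each group, hybridised Clontech Atlas plastic arrays carrying 5030 probes and quantified the spots with AtlasImage. The deposited values are scores: each is 2 raised to the standard score, divided by 3, of a probe's log intensity over the 10 arrays, as read from the values. The smallest whole numbers giving these scores were recovered by search for 4959 probes (98.6%) and taken as intensities, without knowledge of any factor common to a probe, and 71 were left out. Background was the density mode of each array plus 3 SD, with the SD taken from the values under the mode. On the WT LPS 24 h array those were 12 probes, all at the lowest value of 9. Arrays were scaled by robust regression (MASS 7.3.60.0.1) on the mean of the 10 arrays over 497 probes. LPS minus SP was tested in limma 3.58.1 (R 4.3.3) on probes with at least 3 pair differences, with Benjamini-Hochberg adjustment and a threshold of 0.05. The steps were tested on simulated data. The simulated pair differences had independent noise and the same shift in every pair, without bounds or lowest values. They therefore cannot speak to the Dclk1 call. Named genes are called probes, the highest and lowest in 1 direction, the top members of each list, receptors, and extremes of interactions and pairs. Members, lists and tests were chosen with earlier results of these data known. Of 5030 probes, 4633 had 1 gene name, 4624 of them in the RefSeq table. An exact sign-flip test over 4 pairs cannot go below p = 0.125. The number of arrays limits the precision. Normalization, background, filter, pairing, model and pair left out were varied.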

Additional observations from a re-analysis of the deposited data

Results flagged for a closer look

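Among 29 named genes with a difference in all 4 pairs, 4 had 1 pair whose gap to the next exceeded Dixon's 95% critical value for 4 values. That value is passed by chance by about 1 in 20 groups picked without regard to their values. These genes were picked partly for extreme means or single pairs, Crabp1 for the pair given here among others, so the count is a description and not a test. For Ccl9 this was the WT 24 h pair (-1.68), for Dmrt1 the WT 24 h pair (-1.80, with a ratio of 0.83 that lies at the critical value), for Mmp12 the WT 24 h pair (1.19) and for Crabp1 the PAR1-/- 4 h pair (-2.30). The WT 24 h pair is the one whose LPS array holds 1 value for 86.7% of its probes.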

How the results depend on the processing

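The main setting gave 1 probe higher and 0 lower after LPS, 9 and 1 with 1 direction and a mean of 1 or more, and 0 calls for each interaction. Without normalization between arrays these became 0 higher, 2 and 37 with 1 direction, and 6 time calls. Quantile normalization gave 0 higher, 5 and 4 with 1 direction and 2 time calls. A shift to equal medians gave 2 higher (Dclk1 and Sptb), 2 lower with 1 direction and 8 time calls. A threshold of 2 SD gave 0 higher and 2 lower with 1 direction. With no floor there were 11 higher and 4 lower, 1 and 5 with 1 direction, 3 genotype and 7 time calls. A difference in all 4 pairs gave 0 higher and 1 with 1 direction, and in at least 2 pairs 28 and 2. The deposited scores gave 0 higher, and 0 and 0 with 1 direction. A trended robust prior gave 7 time calls. The unpaired model with genotype and time, in place of the pairing, gave 0 higher. Chosen after seeing the data, lowest values set to missing gave 0 higher, and a threshold under the next value on the WT LPS 24 h array gave 2 time calls. Leaving out 1 pair at a time gave 0 to 5 higher, 0 lower, 7 to 51 and 0 to 3 with 1 direction, 0 to 3 genotype and 0 to 26 time calls.

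Without normalization the means of Cacna2d1 (-0.13), Mx2 (-0.16), Atf3 (-0.22), Itgb1 (-0.01), Cpa3 (-0.10), Krt19 (-0.24), Gzmb (-0.01), Mmp12 (-0.09) and Ppp1r17 (-0.20) changed sign. On the deposited scores so did Cacna2d1 (-0.04), Mx2 (-0.11), Atf3 (-0.10), Itgb1 (-0.01), Cpa3 (-0.03), Krt19 (-0.14), Mmp12 (-0.02) and Ppp1r17 (-0.06), and with no floor Atf3 (-0.07) and Krt19 (-0.07). With 1 pair left out the mean ran from -0.56 to 0.42 for Cacna2d1, -1.96 to 1.75 for Lif, -0.05 to 0.38 for Mmp12 and -0.28 to 0.93 for Ppp1r17. The cause was not tested. Signal over background limits the WT 24 h pair, where 882 probes gave a difference.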

Other observations

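The probes at the lowest value of the 24 h arrays came in shared sets. The SP arrays of PAR1-/- and WT at 24 h shared 9 probes, 100% of the 9 in PAR1-/- and 90.0% of the 10 in WT, among them Cdkn2c, Dclk1, Hey2, Naglu, Sec61a1, Shoc2, Smc2 and Snap23. The LPS and saline arrays of PAR1-/- shared 20, 100% of the 20 after LPS and 87.0% of the 23 after saline, among them Anxa5, Gnas, Ltc4s, Sumo3, Ube2g2 and Yap1. The LPS and saline arrays of WT shared 11, 91.7% of the 12 after LPS and 84.6% of the 13 after saline, among them Ajuba, Fgfr4, Il17a, Sufu and Traf5. Other pairs of these 6 arrays shared 1 or 2, always with Sec61a1. In saline bladders at 24 h Dclk1 had an intensity of 49 in PAR1-/- and 6 in WT, and the WT value is again the lowest of its array. What sets these values was not tested.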
